A study of Mus musculus with 8 samples.

Results

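The genes described here are 10 ligands and receptors of the spermatogonial niche, the set of somatic cells that supports germ line stem cells in the testis: Gdnf, Gfra1 and Ret, Kitl and Kit, Cxcl12 and Cxcr4, and Fgf9, Fgf2 and Fgfr1. They were taken by gene symbol, case ignored, from a table of RPKM (read numbers scaled to transcript length and sequencing depth) that covered 23765 genes. All 10 were found, with 30 transcripts between them, and the transcript with the highest average of both group means stands for its gene. The samples were mouse testes, 4 samples labelled Dio3KO and 4 wild-type samples that the submitters call biological replicates, all of the 129/SVJ background at postnatal day 5. The product of Dio3 is a deiodinase that turns thyroid hormones into inactive forms. Genes of the neonatal testis under thyroid hormone control are the subject named in the study's title. Nothing in the labels tells how Dio3 was altered, in which cells, or whether a sample holds 1 mouse or a pool.

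The table held the authors' mean of each group with its coefficient of variation (CV, the SD divided by the mean), and values of single samples were not analysed here, so whether samples of the groups overlapped is unknown. The depth of each library is unknown too. The background consists of the 15225 genes that reached 1 RPKM in the mean of either group, and their median log2 ratio was -0.05. Dio3 had a mean of 2.95 RPKM (CV 0.29) in Dio3KO-labelled testes and 0.52 RPKM (CV 0.20) in wild-type testes, so the targeted gene was higher under the knockout label and does not check that label. Its adjusted p in the authors' deposited table was 0.0408. The markers of germ, Sertoli, Leydig and peritubular myoid cells, 28 genes in all, each reached 1 RPKM. The extraction text names hypothalami, yet the 9 hypothalamic markers summed to 4.13 RPKM in Dio3KO-labelled and 6.96 RPKM in wild-type testes.

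GDNF is secreted by Sertoli and peritubular myoid cells. It binds the co-receptor GFRA1 on undifferentiated spermatogonia, which then signal through the receptor tyrosine kinase RET to maintain the stem cell pool. KIT ligand, the product of Kitl, acts on KIT of differentiating spermatogonia, and KIT is also found on Leydig and mast cells. CXCL12 attracts cells that carry CXCR4, and it is known to keep spermatogonial stem cells at their place. FGF2 and FGF9 signal through FGFR1 and other FGF receptors in germ and somatic cells.

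Taking 1 transcript per gene, members that passed the authors' test were found in the GDNF system only. Gdnf and Ret fell in Dio3KO-labelled testes, and the co-receptor gene Gfra1 was at a lower mean without passing. No member rose. In whole testes, fewer cells of a type and less RNA per cell cannot be told apart. With the authors' deposited adjusted p below 0.05 as the threshold, 2 of 10 members fell and 0 rose, beside 15.9% of the 15225 background genes called lower, 14.0% called higher and 29.9% called in either direction. The share of members called lower was thus near that of all genes. A moderated limma test, built from the same means and CVs with Benjamini-Hochberg adjustment over all genes, called 3 lower (Gdnf, Gfra1 and Ret) and 3 higher (Kit, Cxcr4 and Fgfr1). Its background shares were 23.2% lower and 18.6% higher. These shares are higher than those of the deposited p over the same genes. The members with an unadjusted limma p below 0.05 were again 3 in each direction. No share of all genes was computed at an unadjusted limma p. Such counts, here and for the lists below, therefore have no background to be read against.

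Upstream sequence is shown for the genes with the lowest and the highest ratio, Gdnf and Cxcr4. Windows of Ret and Fgfr1 were not used here. RefSeq promoter windows (GRCm38.p6, 250 bases before to 50 after a start site) were at hand for 8 members, as 10 windows. The windows of Kit, from bases 75574737 and 75574741 of chromosome 5, share nearly all their bases but were counted separately. The nuclear receptor core motif AGGTCA, which thyroid hormone receptors can bind, was searched on both strands. It was in 1 of the 10 windows, that of the upstream start site of Gdnf, against 16.3% of all 32851 windows. There it starts 87 bases before the start site and lies on the plus strand at chr15:7809961-7809966. A pair of such motifs as a direct repeat with a spacer of 4 bases was in no window of a member and in 0.0152% of all windows. The 250 bases before each start site are given 5′ to 3′, with the motif in capitals. These stretches share 0 bases with an exon annotated in GENCODE M21. The first lies at chr15:7809798-7810047 on the plus strand, before the start of Gdnf in that annotation. The second, at chr15:7813477-7813726 on the plus strand, lies before another start site of Gdnf and holds no copy of the motif. The third, of Cxcr4, is at chr1:128592300-128592549 on the minus strand and holds none either.
Gdnf upstream start site: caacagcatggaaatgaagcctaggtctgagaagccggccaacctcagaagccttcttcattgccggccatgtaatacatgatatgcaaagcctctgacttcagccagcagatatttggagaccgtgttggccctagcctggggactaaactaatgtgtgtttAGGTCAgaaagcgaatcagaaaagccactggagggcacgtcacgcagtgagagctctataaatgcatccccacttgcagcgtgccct
Gdnf downstream start site: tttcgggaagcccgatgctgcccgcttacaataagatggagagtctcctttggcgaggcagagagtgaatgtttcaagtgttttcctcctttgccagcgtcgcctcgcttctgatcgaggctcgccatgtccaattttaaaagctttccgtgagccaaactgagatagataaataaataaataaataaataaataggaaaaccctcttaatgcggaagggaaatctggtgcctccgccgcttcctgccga
Cxcr4: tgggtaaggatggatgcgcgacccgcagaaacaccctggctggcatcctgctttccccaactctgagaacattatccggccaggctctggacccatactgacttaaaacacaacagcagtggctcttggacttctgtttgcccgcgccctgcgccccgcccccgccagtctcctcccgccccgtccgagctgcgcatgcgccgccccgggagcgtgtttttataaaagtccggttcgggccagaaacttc

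Gdnf, the ligand, had the lowest ratio of the 10. The authors' mean was 5.05 RPKM (CV 0.12) in Dio3KO-labelled testes and 8.66 RPKM (CV 0.15) in wild-type testes, so the level fell by 41.7%. Its log2 ratio was -0.72 ± 0.13 (SE from its CVs), and its adjusted p in the authors' deposited table was 0.0305. The limma adjusted p was 0.000326, and it lay between 0.000325 and 0.000889 under its 5 other settings (pseudocounts of 0.1 and 1 RPKM, a constant prior, centred ratios, and no minimum level). The mean plus 1 SD in Dio3KO-labelled testes, 5.66 RPKM, stood below the mean minus 1 SD in wild-type testes, 7.36 RPKM. Gdnf (ENSMUSG00000022144.4 in GENCODE M21) spans bases 7810846 to 7837575 of chromosome 15, plus strand, in mm10.

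Ret, the signalling receptor, also fell. Its mean was 6.69 RPKM (CV 0.11) in Dio3KO-labelled testes and 9.43 RPKM (CV 0.09) in wild-type testes, a log2 ratio of -0.47 ± 0.10 (SE from its CVs). The adjusted p for Ret was 0.0175 in the authors' deposited table, and the limma adjusted p was 0.00128 (0.00127 to 0.0029 under its other settings). Its SD ranges did not meet, with 7.43 RPKM as the upper bound under the Dio3KO label and 8.58 RPKM as the lower bound in wild type. Such ranges also did not meet for Gfra1, Kit, Cxcr4 and Fgfr1, which did not pass the authors' test. For Gfra1 the Dio3KO-labelled upper bound was 11.8 RPKM and the wild-type lower bound 12.9 RPKM. For Kit, Cxcr4 and Fgfr1 the Dio3KO-labelled lower bounds were 7.56, 7.9 and 21.2 RPKM. The wild-type upper bounds of these genes were 7.43, 6.4 and 20.3 RPKM. Ret (ENSMUSG00000030110.13) is on the minus strand of chromosome 6, from 118151745 to 118197718.

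Gfra1, which encodes the co-receptor that binds GDNF, had a mean of 11.5 RPKM (CV 0.03) in Dio3KO-labelled testes and 15.2 RPKM (CV 0.15) in wild-type testes. The log2 ratio was -0.39 ± 0.11 (SE from its CVs). It did not pass in the authors' deposited table, where its adjusted p was 0.1006, whereas the limma adjusted p was 0.00488 (0.0048 to 0.0103 under its other settings). Gfra1 varied more between wild-type samples, by its CV, than between Dio3KO-labelled samples. Gfra1 (ENSMUSG00000025089.15) is on the minus strand of chromosome 19 from 58235604 to 58455909, and 7.6% of its exon bases are also exon of Gm16277 on the opposite strand. The sources used here do not say if reads were counted by strand.

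**Figure D1:**
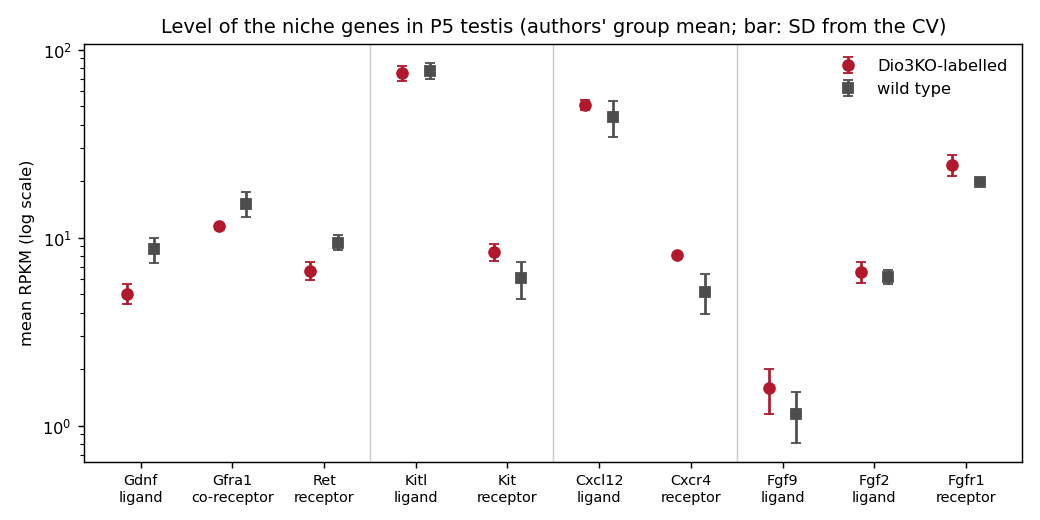
Authors' mean RPKM of each of the 10 genes (log axis) in Dio3KO-labelled testes (red circles) and wild-type testes (grey squares), with bars of 1 SD computed from the deposited CV. The 3 GDNF system genes are lower in the Dio3KO-labelled group (Gdnf 5.05 against 8.66 RPKM), while Kitl (74.9 against 77.3 RPKM) nearly coincides.

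By the group means alone, the quotients of the ligand over both receptor components were lower in Dio3KO-labelled testes. The Gdnf level was 0.755 times that of Ret in Dio3KO-labelled testes and 0.918 times in wild-type testes, and 0.44 times that of Gfra1 against 0.569 times. Gfra1 stood at 1.72 times Ret in Dio3KO-labelled and 1.61 times in wild-type testes, so the quotient of the receptor components moved less than the quotients with the ligand. The covariance of genes across samples is not in the group means, so none of these quotients was tested. The same holds for the quotients of the KIT, CXCL12 and FGF systems below.

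Other genes around GDNF did not move as a block. Of 11 listed family ligands, co-receptors and binding partners, 7 reached 1 RPKM, of which 1 rose, 2 fell and 4 did not pass (median log2 ratio -0.24). The counts of this and each later list, markers included, stand beside 14.0% of background genes called higher and 15.9% called lower by the authors' p. Counts by limma adjusted p stand beside 18.6% called higher and 23.2% called lower by limma. Gdf15, a distant family member that signals through GFRAL and RET, fell to 0.7 RPKM (CV 0.34) in Dio3KO-labelled testes, against 4.61 RPKM (CV 0.30) in wild-type testes (0.0391 as adjusted p in the authors' deposited table). The gene of its receptor, Gfral, was listed at 0 in both groups. The syndecan gene Sdc3, whose product binds GDNF, fell to 6.49 RPKM under the Dio3KO label, against 8.92 RPKM in wild type (adjusted p 0.0092 in the authors' deposited table). Sorl1, a sorting receptor that takes up GDNF with GFRA1, rose to 7.01 RPKM in Dio3KO-labelled testes, against 2.54 RPKM in wild-type testes (0.0178 as adjusted p in the authors' deposited table). Ncam1, an alternative receptor for GDNF, was at 5.89 and 7.12 RPKM in Dio3KO-labelled and wild-type testes. Gfra2, the co-receptor of neurturin, was at 3.34 RPKM in Dio3KO-labelled and 4.03 RPKM in wild-type testes, and neither gene passed. The paralogous ligands Artn and Pspn stayed below 1 RPKM in both groups. Nrtn, which encodes neurturin, was at 4.24 RPKM in Dio3KO-labelled and 2.95 RPKM in wild-type testes (0.0513 as adjusted p in the authors' deposited table) (named after its value was seen).

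Of 8 genes known to respond to GDNF in cultured spermatogonia, 6 reached 1 RPKM, of which 2 fell, 0 rose and 4 did not pass. Limma called 3 of the 6 lower and 0 higher, and at an unadjusted limma p below 0.05 the counts were 4 and 0. Of all background genes, 15.9% were called lower by the authors' p and 23.2% by limma. Bcl6b, a transcriptional repressor needed for stem cell maintenance, fell to 3.5 RPKM (CV 0.15) in Dio3KO-labelled testes, against 5.89 RPKM (CV 0.16) in wild-type testes (0.0353 as adjusted p in the authors' deposited table). The zinc finger gene Egr2 fell to 2.11 RPKM under the Dio3KO label, against 3.88 RPKM in wild type (adjusted p 0.0065 in the authors' deposited table). Etv5, an ETS factor of the same response, was at 24.3 RPKM in Dio3KO-labelled and 23.2 RPKM in wild-type testes, and Id4, an inhibitor of basic helix-loop-helix factors, was at 6.26 and 8.12 RPKM. Neither passed. Lhx1, named after its value was seen, was at 0.5 RPKM in Dio3KO-labelled and 1.32 RPKM in wild-type testes (0.0529 as adjusted p in the authors' deposited table). Over the 6 genes, the median log2 ratio was -0.51, beside -0.05 for all genes.

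Markers of the cells that make or receive GDNF were measured beside it. The 8 germ cell markers summed to 247 RPKM in Dio3KO-labelled testes and 274 RPKM in wild-type testes. None passed the authors' test, 7 of 8 had a lower mean, their median log2 ratio was -0.20, and limma called 2 lower and 0 higher, as it did at an unadjusted p below 0.05. Of the 15225 background genes, 8822 had a lower and 6358 a higher mean, and limma called 23.2% lower and 18.6% higher. Dazl, counted among the 7, was nearly equal, at 89.72 RPKM in Dio3KO-labelled and 89.74 RPKM in wild-type testes. Mael was at 57.0 and 69.35 RPKM. The 8 cell cycle genes all fell, with a median log2 ratio of -0.64. Of the 9 Sertoli cell markers, 3 rose and 3 fell, and of the 5 peritubular myoid markers 1 rose and 1 fell. The part of these cell types in the levels of Gdnf, Ret and Gfra1 was not tested.

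Of 15 genes of undifferentiated spermatogonia, 11 reached 1 RPKM, of which 2 fell, 0 rose and 9 did not pass. Limma called 3 of the 11 lower and 1 higher (4 and 1 unadjusted). By the authors' p, 15.9% of background genes fell and 14.0% rose. By limma, 23.2% of background genes were called lower and 18.6% higher. The tetraspanin gene Tspan8 fell to 2.19 RPKM in Dio3KO-labelled testes, against 3.28 RPKM in wild-type testes (0.0108 as adjusted p in the authors' deposited table). Foxc2, a forkhead gene of quiescent stem cells, fell to 3.61 RPKM under the Dio3KO label, against 5.29 RPKM in wild type (adjusted p 0.0486 in the authors' deposited table). Itga6, an integrin subunit that Sertoli cells also carry, was at 80.7 RPKM in Dio3KO-labelled and 71.7 RPKM in wild-type testes. The RNA-binding protein gene Lin28a was at 13.3 RPKM in both groups, and neither passed.

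In the KIT system the ligand gene was at nearly equal means and the receptor gene at a higher mean that did not pass. Kitl was the most abundant of the 10, at 74.9 RPKM (CV 0.09) in Dio3KO-labelled testes and 77.3 RPKM (CV 0.10) in wild-type testes. Its log2 ratio of -0.05 ± 0.10 (SE from its CVs) equals the median of all genes, and its adjusted p in the authors' deposited table was 0.6092. Kit had means of 8.4 RPKM (CV 0.10) in Dio3KO-labelled and 6.09 RPKM (CV 0.22) in wild-type testes, a log2 ratio of 0.43 ± 0.16 (SE from its CVs). It did not pass in the authors' deposited table (adjusted p 0.0873), while the limma adjusted p was 0.0225 (0.014 to 0.0362 under its other settings). Kitl (ENSMUSG00000019966.18) spans bases 100015630 to 100100416 of chromosome 10, and Kit (ENSMUSG00000005672.12) spans 75574916 to 75656722 of chromosome 5, both on the plus strand. The Kitl level was 8.91 times that of Kit in Dio3KO-labelled testes and 12.7 times in wild-type testes.

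Differentiating spermatogonia, which carry KIT, were followed by other genes. Of 8 such genes, all above 1 RPKM, 0 rose and 0 fell by the authors' p, and limma called 1 lower and 0 higher, as it did unadjusted. Dmrt1, a regulator of the mitosis to meiosis decision that Sertoli cells also express, was at 83.1 RPKM in Dio3KO-labelled and 97.4 RPKM in wild-type testes, and Ccnd2, a cyclin, was at 45.0 and 58.9 RPKM. Both were named for their level. Over the list, 3 genes had a higher and 5 a lower mean, and the median log2 ratio was -0.08, beside -0.05 for all genes. Stra8, for 1, was at 14.6 RPKM in Dio3KO-labelled and 11.6 RPKM in wild-type testes, and Sohlh1 at 18.8 RPKM in both. The 5 mast cell markers above 1 RPKM had a median log2 ratio of 0.05 with 0 called in either direction, by the authors' p and by limma, adjusted or not. Of 6 Leydig cell markers 2 rose and 0 fell, with sums of 574 RPKM in Dio3KO-labelled and 390 RPKM in wild-type testes. The 2 that rose were Cyp11a1 (156 against 64.2 RPKM) and Hsd3b1 (245 against 158 RPKM). Means were higher for 4 of the 6 and lower for 2. Those 2 were Insl3 (70.0 and 84.7 RPKM in Dio3KO-labelled and wild-type testes) and Cyp17a1 (55.1 and 55.5 RPKM), which did not pass. The part of mast and Leydig cells in the level of Kit was not tested.

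Among 12 genes of proximal KIT signalling, 3 rose and 1 fell, while 8 did not pass (median log2 ratio 0.07). Among background genes 14.0% rose and 15.9% fell. Pik3r1, the regulatory subunit through which phosphoinositide 3-kinase docks on KIT, rose to 26.7 RPKM (CV 0.09) in Dio3KO-labelled testes, against 12.4 RPKM (CV 0.26) in wild-type testes (0.0084 as adjusted p in the authors' deposited table). The phosphatase gene Ptpn6, whose product dampens KIT signalling in blood cells, rose to 3.52 RPKM under the Dio3KO label, against 1.64 RPKM in wild type (adjusted p 0.0023 in the authors' deposited table). The Src family kinase gene Lyn rose to 5.02 RPKM in Dio3KO-labelled testes, against 3.24 RPKM in wild-type testes (adjusted p 0.006 in the authors' deposited table). Ptpn6 and Lyn are abundant in leukocytes, and 8 of 9 macrophage markers rose as well, from a list that summed to 140 RPKM under the Dio3KO label and 67.6 RPKM in wild type. The part of leukocytes in the levels of Ptpn6 and Lyn was not tested. Plcg1, a phospholipase, fell to 33.3 RPKM in Dio3KO-labelled testes, against 37.6 RPKM in wild-type testes (adjusted p 0.018 in the authors' deposited table). Ptpn11 (36.2 and 35.0 RPKM in Dio3KO-labelled and wild-type testes) and Src (32.6 and 30.3 RPKM) did not pass.

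In the CXCL12 system both genes had higher means in Dio3KO-labelled testes, and neither representative transcript passed. Cxcr4, the receptor, was at 8.06 RPKM (CV 0.02) in Dio3KO-labelled testes and 5.16 RPKM (CV 0.24) in wild-type testes. Its log2 ratio of 0.60 ± 0.16 (SE from its CVs) was the highest of the 10. Cxcr4 just missed the threshold in the authors' deposited table, at an adjusted p of 0.057, and the limma adjusted p was 0.00382 (0.0024 to 0.00725 under its other settings). The wild-type SD was 1.24 RPKM and that of the Dio3KO-labelled group 0.161 RPKM, so most of the spread lay between wild-type samples. Cxcl12, the ligand, was at 50.9 RPKM (CV 0.06) in Dio3KO-labelled and 43.9 RPKM (CV 0.22) in wild-type testes, a log2 ratio of 0.21 ± 0.16 (SE from its CVs). Its adjusted p was 0.3232 in the authors' deposited table, and the limma adjusted p was 0.227 (0.15 to 0.287 under its other settings). The Cxcl12 level was 6.31 times that of Cxcr4 in Dio3KO-labelled testes and 8.5 times in wild-type testes. Cxcl12 (ENSMUSG00000061353.11) spans bases 117168535 to 117181367 of chromosome 6 on the plus strand, and Cxcr4 (ENSMUSG00000045382.6) spans 128588199 to 128592293 of chromosome 1 on the minus strand.

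The Cxcl12 transcripts did not share their result. Both transcripts of lower level passed in the authors' deposited table. The first, uc009dku.2, was at 14.2 RPKM (CV 0.08) in Dio3KO-labelled and 9.89 RPKM (CV 0.20) in wild-type testes (0.0474 as adjusted p in the authors' deposited table). The second, uc009dkt.2, was at 8.75 RPKM (CV 0.09) in Dio3KO-labelled and 6.18 RPKM (CV 0.19) in wild-type testes (0.0476 in the authors' deposited table). Their log2 ratios were 0.50 ± 0.15 and 0.47 ± 0.14 (SE from their CVs), beside 0.21 for the main transcript. Which exons these identifiers stand for is not given in the sources used here, and whether the transcripts differed from each other in their ratio was not tested.

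**Figure D2:**
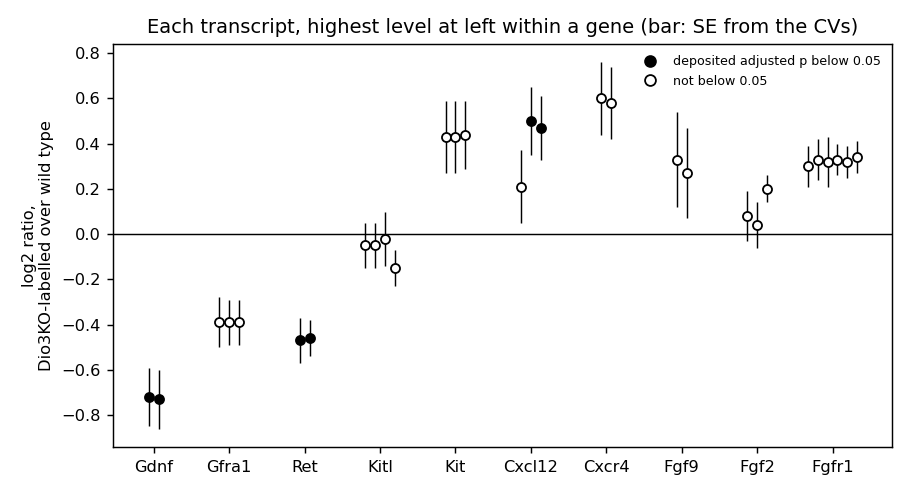
Log2 ratio of Dio3KO-labelled over wild-type testes for each of the 30 transcripts, highest level at the left within a gene, with bars of 1 SE from the CVs and filled points for a deposited adjusted p below 0.05. Both Gdnf and both Ret transcripts are filled below 0, and the 2 minor Cxcl12 transcripts are filled above 0.

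Within each of the 10 genes, every transcript pointed the same way, which is partly given by the exons that they share. Of the 30 transcripts, 4 fell, 2 rose and 24 did not pass, beside 15.7% called lower and 13.9% called higher of the 35029 transcripts that reached 1 RPKM. Of the members' transcripts, 11 had a lower and 19 a higher mean in Dio3KO-labelled testes. The directions of all transcripts were not counted. The 4 that fell were both of Gdnf (log2 ratios -0.72 and -0.73) and both of Ret (-0.47 and -0.46). The 3 Gfra1 transcripts all had a log2 ratio of -0.39, with adjusted p values between 0.0974 and 0.1006 in the authors' deposited table. Of 4 Kitl transcripts, uc007gxr.1 had the lowest level, 48.6 RPKM in Dio3KO-labelled and 53.8 RPKM in wild-type testes, and the lowest ratio, -0.15 ± 0.08 (SE from its CVs), without passing.

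Of the proteins that shape the CXCL12 signal, 6 were listed and all 6 genes were above 1 RPKM. Of these, 1 rose, 2 fell and 3 did not pass. Ackr3, the scavenging receptor that removes CXCL12, rose to 6.61 RPKM in Dio3KO-labelled testes, against 5.44 RPKM in wild-type testes (0.0325 as adjusted p in the authors' deposited table). Grk6, a kinase that desensitises CXCR4, fell to 21.8 RPKM under the Dio3KO label, against 26.6 RPKM in wild type (adjusted p 0.0059 in the authors' deposited table). Hmgb1, a chromatin protein that can pair with CXCL12 outside the cell, fell to 216 RPKM in Dio3KO-labelled testes, against 286 RPKM in wild-type testes (adjusted p 0.0098 in the authors' deposited table). The G protein gene Gnai2 (103 and 93.8 RPKM in Dio3KO-labelled and wild-type testes) and the arrestin gene Arrb2 (20.2 and 23.6 RPKM) did not pass. CXCR4 is also carried by leukocytes and CXCL12 is made by stromal and endothelial cells. Besides the macrophage markers, 4 of 7 endothelial markers and 2 of 5 markers of interstitial stroma rose and 0 of either list fell. Limma called 6 and 2 higher and 0 lower, beside 18.6% and 23.2% of background genes. Ptprc, the common leukocyte gene, rose to 1.78 RPKM in Dio3KO-labelled testes, against 0.72 RPKM in wild-type testes (0.0233 as adjusted p in the authors' deposited table). The part of these cells in the levels of Cxcr4 and Cxcl12 was not tested.

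In the FGF system, no member passed. Fgfr1, the receptor, was at 24.4 RPKM (CV 0.13) in Dio3KO-labelled testes and 19.7 RPKM (CV 0.03) in wild-type testes, a log2 ratio of 0.30 ± 0.09 (SE from its CVs). Its adjusted p was 0.1235 in the authors' deposited table, and between 0.063 and 0.1364 over its 6 transcripts there, while the limma adjusted p was 0.0109 (0.00482 to 0.0206 under its other settings). Unlike Kit and Cxcr4, Fgfr1 varied more between the Dio3KO-labelled samples. Fgf2 was at 6.58 RPKM (CV 0.13) in Dio3KO-labelled and 6.2 RPKM (CV 0.09) in wild-type testes, a log2 ratio of 0.08 ± 0.11 (SE from its CVs), and its adjusted p was 0.5035 in the authors' deposited table. Fgf9, which keeps fetal germ cells from entering meiosis, was the lowest of the 10 at 1.58 RPKM (CV 0.27) in Dio3KO-labelled and 1.16 RPKM (CV 0.30) in wild-type testes. Its log2 ratio was 0.33 ± 0.21 (SE from its CVs), and its adjusted p was 0.2654 in the authors' deposited table and 0.156 by limma (0.112 to 0.211 under its other settings). Fgf9 had the highest CVs of the 10 in both groups. The Fgf2 level was 0.27 times that of Fgfr1 in Dio3KO-labelled and 0.315 times in wild-type testes, and that of Fgf9 was 0.0648 and 0.0589 times.

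All 3 genes are on the plus strand. Fgfr1 (ENSMUSG00000031565.18) spans bases 25513654 to 25575718 of chromosome 8. Fgf2 (ENSMUSG00000037225.13) spans bases 37348346 to 37410108 of chromosome 3, and Fgf9 (ENSMUSG00000021974.15) spans 58070547 to 58112720 of chromosome 14. In Fgf2, 13.2% of the exon bases are also exon of Nudt6 on the opposite strand or of Gm43439, and in Fgfr1 1.66% are shared with Gm16159. Reads of these stretches could not be assigned to 1 gene here.

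Of 20 other FGF family genes, 19 were in the table and 5 reached 1 RPKM, of which 2 fell, 0 rose and 3 did not pass. Limma called 3 lower and 0 higher, as it did unadjusted. Its adjusted p called 23.2% of background genes lower and 18.6% higher. The 2 that fell, Fgf11 and Fgf12, encode intracellular FGF homologues and not secreted ligands. Fgf11 and Fgf12 fell to 2.28 and 0.47 RPKM in Dio3KO-labelled testes, against 3.71 and 1.06 RPKM in wild-type testes. Their adjusted p values were 0.0132 and 0.0417 in the authors' deposited table. Fgf18, a secreted ligand, was at 1.04 RPKM (CV 0.19) in Dio3KO-labelled and 3.13 RPKM (CV 0.28) in wild-type testes (adjusted p 0.0524 in the authors' deposited table and 0.000149 by limma). Fgf13 (3.98 and 4.14 RPKM in Dio3KO-labelled and wild-type testes) did not pass.

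The receptor genes differed among themselves. Fgfr2 rose to 13.1 RPKM (CV 0.07) in Dio3KO-labelled testes, against 6.94 RPKM (CV 0.15) in wild-type testes (0.0045 as adjusted p in the authors' deposited table). On the log2 scale Fgfr2 differed by 0.87 ± 0.11 (SE from its CVs). FGFR2 is the receptor through which FGF9 acts on Sertoli cell precursors of the fetal gonad. Fgfrl1, a receptor without a kinase domain, fell to 10.9 RPKM under the Dio3KO label, against 14.2 RPKM in wild type (adjusted p 0.0271 in the authors' deposited table). Flrt1, a membrane protein that binds FGF receptors, fell to 3.32 RPKM in Dio3KO-labelled testes, against 4.72 RPKM in wild-type testes (adjusted p 0.0254 in the authors' deposited table). In all, 13 receptor and cofactor genes were listed and 11 reached 1 RPKM, of which 1 rose, 2 fell and 8 did not pass. Among those were Flrt2 (7.98 and 7.52 RPKM in Dio3KO-labelled and wild-type testes) and the docking protein gene Frs2 (7.77 and 7.49 RPKM).

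RET, KIT and FGF receptors all signal through ERK, whose feedback inhibitors and target genes were counted as a further list. Of 15 such genes 12 reached 1 RPKM, and 4 fell, 0 rose and 8 did not pass. Limma was also at 4 lower and 0 higher (6 and 0 unadjusted). The shares of background genes called lower were 15.9% by the authors' p and 23.2% by limma. Spry1, an inhibitor of receptor tyrosine kinases that is known to restrain RET, fell to 18.3 RPKM (CV 0.04) in Dio3KO-labelled testes, against 23.4 RPKM (CV 0.05) in wild-type testes (0.0095 as adjusted p in the authors' deposited table). Etv1, an ETS factor, fell to 5.87 RPKM under the Dio3KO label, against 9.71 RPKM in wild type (adjusted p 0.021 in the authors' deposited table). Il17rd, an inhibitor of FGF signalling, fell to 5.17 RPKM in Dio3KO-labelled testes, against 7.7 RPKM in wild-type testes, and Spry4 fell to 3.09 RPKM, against 4.15 RPKM. Their adjusted p values in the authors' deposited table were 0.032 and 0.0232. Dusp6, the ERK phosphatase, was at 33.6 RPKM in Dio3KO-labelled and 35.3 RPKM in wild-type testes, and Spred1 was at 30.2 and 34.2 RPKM, without passing. The list's median log2 ratio was -0.15, beside -0.05 for all genes.

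Heparan sulfate holds FGFs, GDNF and CXCL12 at the cell surface. Of 20 genes of its proteoglycans and enzymes, 18 reached 1 RPKM, of which 2 rose and 3 fell, while 13 did not pass (median log2 ratio -0.10). Hs6st2, a sulfotransferase, fell to 13.9 RPKM (CV 0.10) in Dio3KO-labelled testes, against 24.9 RPKM (CV 0.12) in wild-type testes (0.018 as adjusted p in the authors' deposited table). Sulf2, which removes such sulfate groups, rose to 78.4 RPKM under the Dio3KO label, against 60.3 RPKM in wild type (adjusted p 0.0236 in the authors' deposited table). The syndecan gene Sdc4 rose to 212 RPKM in Dio3KO-labelled testes, against 168 RPKM in wild-type testes (adjusted p 0.0286 in the authors' deposited table). The glypican gene Gpc3 (69.0 and 96.5 RPKM in Dio3KO-labelled and wild-type testes) and the sulfotransferase gene Ndst1 (52.3 and 45.8 RPKM) did not pass.

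Of 17 other niche ligands and receptors, 15 reached 1 RPKM, and 7 rose, 0 fell and 8 did not pass. Limma called 8 of the 15 higher and 2 lower (8 and 3 unadjusted). Of all background genes, 14.0% were called higher and 15.9% lower by the authors' p, and 18.6% and 23.2% by limma. Csf1, a growth factor of macrophages to which spermatogonial stem cells also respond, rose to 7.87 RPKM (CV 0.10) in Dio3KO-labelled testes, against 3.89 RPKM (CV 0.06) in wild-type testes (0.0124 as adjusted p in the authors' deposited table). Its receptor gene Csf1r, also counted among the macrophage markers, rose to 15.9 RPKM under the Dio3KO label, against 7.85 RPKM in wild type (adjusted p 0.005 in the authors' deposited table). Bmp4, a ligand that favours differentiation of spermatogonia, rose to 9.27 RPKM in Dio3KO-labelled testes, against 5.52 RPKM in wild-type testes, and Rspo1, an enhancer of Wnt signals, rose to 5.71 RPKM, against 3.38 RPKM. Their adjusted p values were 0.0026 and 0.0144 in the authors' deposited table. The cytokine receptor gene Il6st (87.2 and 93.4 RPKM in Dio3KO-labelled and wild-type testes) and the BMP receptor gene Bmpr1a (60.9 and 62.4 RPKM) did not pass. This list had a median log2 ratio of 0.28.

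**Figure D3:**
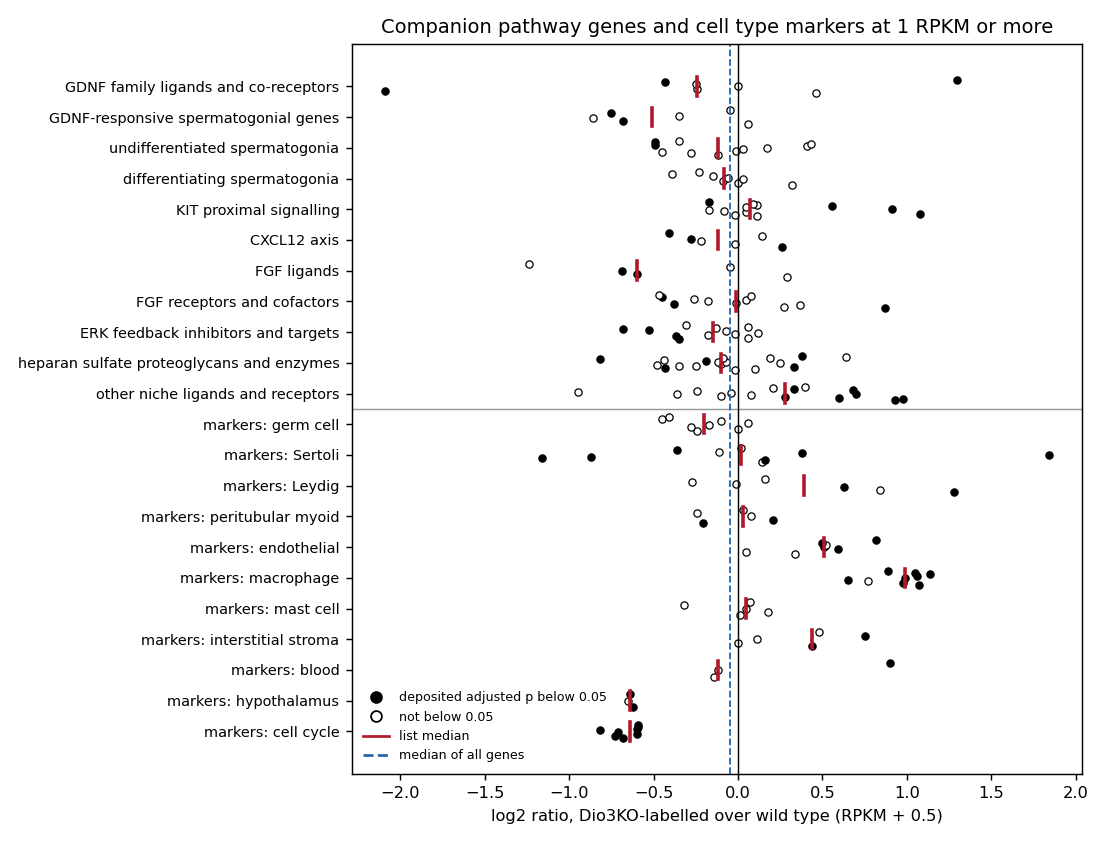
Log2 ratio of Dio3KO-labelled over wild-type testes for every listed gene at 1 RPKM or more, one row for each list (companion pathways above the grey line, cell type markers under it), with red bars for list medians, the dashed line for the median of all genes at -0.05, and filled points for a deposited adjusted p below 0.05. GDNF-responsive genes have their median at -0.51 and other niche genes at 0.28, while macrophage markers stand at 0.99 and cell cycle genes at -0.64.

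Set side by side, the 10 members kept much of their order of level in both groups. Kitl, Cxcl12, Fgfr1 and Gfra1 were the 4 highest, in that order, and Fgf9 the lowest, and the ranges of mean ± 1 SD of these did not meet those of their neighbours. In between, Gdnf was ninth in Dio3KO-labelled testes at 5.05 RPKM, with a range of 1 SD that did not meet that of Fgf2 above it. In wild-type testes it was sixth at 8.66 RPKM, with a range of 1 SD that met that of Ret. Kit (8.4 RPKM) and Cxcr4 (8.06 RPKM) overlapped within 1 SD under the Dio3KO label and stood above Ret there. In wild-type testes Fgf2 (6.2 RPKM), Kit (6.09 RPKM) and Cxcr4 (5.16 RPKM) each overlapped the next. Members had a higher CV in wild type in 7 of 10 cases and in Dio3KO-labelled testes in 3, beside 59.5% of background genes with a higher CV in wild type. The median log2 ratio of the 10 members was 0.15, with 4 below 0 and 6 above. Among all background genes, 8822 had a lower and 6358 a higher mean.

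**Figure D4:**
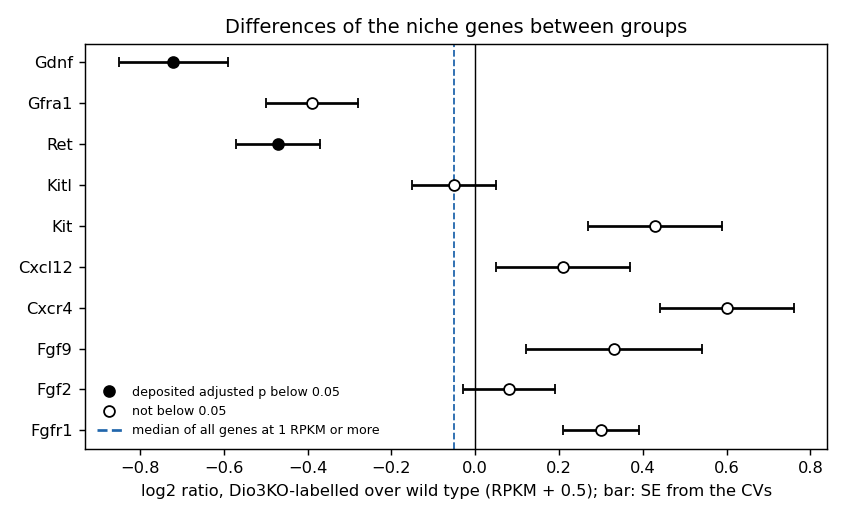
Log2 ratio of Dio3KO-labelled over wild-type testes for each member on the log2(RPKM + 0.5) scale, with bars of 1 SE from the CVs, filled points for a deposited adjusted p below 0.05 and a dashed line at the median of all genes (-0.05). Ratios run from -0.72 for Gdnf to 0.60 for Cxcr4, and Kitl lies on the dashed line.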

How the data were processed

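RNA of 4 Dio3KO-labelled and 4 wild-type mouse testis samples was sequenced at postnatal day 5. Novoalign 2.08, FastQC and the build mm10 come from the submitters' processing notes, which give them no role here. Counting tool, annotation, strandedness and statistical test: not given in the sources used here. For every transcript the authors deposited the mean RPKM of each group, its coefficient of variation (SD as a fraction of the mean) and 1 adjusted p-value per transcript comparing the genotypes, per the file headers. The 147417 lines held each of 49139 transcripts 3 times with equal values. Symbols were matched, case ignored, and older symbols merged through RefSeq and GENCODE M21 names, giving 23765 genes. 2 transcripts under older symbols of Kitl and Fgfr1 were not taken as members. The number of columns of per-sample values left unused was 0.

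Ratios are log2((Dio3KO + 0.5)/(wild type + 0.5)) in RPKM, which understates low genes, with an SE by the delta method from the deposited CVs and 4 samples per group. The limma p-values set the group difference against the spread between samples, which was taken from the CVs and moderated across genes. The test behind the deposited p is unknown, and a sample may be 1 mouse or a pool. "Rose" and "fell" require a deposited adjusted p below 0.05. The moderated test used limma 3.58.1 in R 4.3.3 (squeezeVar, mean trend, robust, 6 residual degrees of freedom, CVs raised to at least 0.0025). It was run on simulated data in which both groups had the same CV and few genes changed, all by the same amount. That simulation therefore does not check calls of genes with unequal CVs in the groups, such as Cxcr4, Gfra1 and Fgfr1. Named are all members and, per list, up to 4 genes that passed (by smallest p) and up to 2 that did not (by highest level); for marker lists values are mainly summed. Members, lists and tests were chosen with earlier results of these data known. Id4, Etv5, Sdc3, Csf1r and Nanos3 stand in 2 lists.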

Additional observations from a re-analysis of the deposited data

How the results depend on the processing

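Under the moderated limma test 3 members were called higher, against 0 by the deposited adjusted p, and 3 again with pseudocounts of 0.1 or 1 RPKM, a constant prior, centred ratios or no minimum level (these 5 settings were chosen after seeing the data). Taking a member as called where any transcript passed gave 1 higher, Cxcl12, and with a deposited adjusted p below 0.01 as the threshold 0 members were called lower, against 2. No share of all genes was computed for either of these settings. Of 141 companion genes, 108 reached 1 RPKM and could be called. The deposited p called 19 of the 108 lower and 15 higher, beside 15.9% and 14.0% of all genes. Limma called 32 lower and 22 higher, beside 23.2% and 18.6% of all genes. The test behind these counts is the one that differs, and the cause of each single gain was not tested. All 50 recomputed log2 ratios of members (pseudocount, sum over transcripts, scaling to the group total, centring) moved by less than 1 SD between samples, and 1 changed sign, that of Kitl, which was 0.05 when scaled to the group total, against -0.05 as reported (0.00 when centred). RPKM summed over all transcripts differed by -0.10 on the log2 scale. No paired analysis was possible because only group means were used, and for the same reason no replicate was left out in turn. Depth is unknown, and low members such as Fgf9 are limited by their CVs.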
